A study of Mus musculus with 6 samples.

Results

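Corticosteroids reach the nucleus of a heart cell through a short chain of proteins, and the transcripts of that chain were examined in ventricles of mice fed finerenone, a non-steroidal antagonist of the mineralocorticoid receptor. The chain was defined as 7 genes chosen by name: the enzymes Hsd11b1 and Hsd11b2, the receptors Nr3c2 and Nr3c1, the coactivators Ncoa1 and Ncoa2, and the corepressor Ncor1. A gene was taken from the transcript cluster whose platform annotation listed that symbol alone, and 6 of the 7 genes had such a cluster, 1 each, of 30142 genes named in this way. Ncor1 was not named by any cluster and was not analysed here.

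Finerenone was given in chow at 100 ppm, starting at 4 weeks of age, to 3 mice, and 3 untreated mice had plain chow. All 6 mice were males of 20 weeks on the C57BL/10 background with the utrn+/-; mdx ("Het") genotype, so that both groups lacked dystrophin and carried a single working utrophin allele. Every comparison is therefore between dystrophic hearts, and hearts of healthy mice were not analysed here. One Affymetrix array was hybridised per mouse with RNA of ventricular tissue. Values are log2 signals after the authors' RMA, a method that corrects background, normalizes arrays and summarises probes. The highest value was 19.93, and whether the signal was transformed after RMA was not stated in the sources used here. Folds are therefore those of the deposited scale.

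As background, aldosterone, corticosterone and cortisol bind the mineralocorticoid receptor with similar affinity, while the glucocorticoid receptor needs higher glucocorticoid levels. Access to either receptor is set within the cell by the 11-beta-hydroxysteroid dehydrogenases. Hsd11b1 mainly regenerates active corticosterone from its inert 11-keto form, whereas Hsd11b2 inactivates it and so protects the mineralocorticoid receptor in kidney tubules. Cardiac muscle cells are known to have little Hsd11b2, so that their mineralocorticoid receptor is thought to be occupied largely by glucocorticoids. Bound receptors recruit p160 coactivators such as Ncoa1 (SRC-1) and Ncoa2 (SRC-2, GRIP1), while Ncor1 holds a histone deacetylase complex at repressed genes.

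Pairwise correlations of the 6 arrays were 0.989 to 0.994 across 65956 transcript clusters. Untreated replicate 1 stood furthest apart, with the lowest mean correlation to the others (0.990) and the lowest array weight (0.687, against 0.951 to 1.40 for the other arrays). The differences of Nr3c2, Nr3c1, Ncoa1 and Ncoa2 are therefore also given without it, while the cell type lists are given only with it. Cardiomyocyte markers were bright in every array, with a mean over 10 measured genes of 17.19 to 17.40 in treated and 17.23 to 17.49 in untreated hearts. Over all 30142 genes, 0 passed an adjusted p of 0.05 in limma (Benjamini-Hochberg; 0% called), and the smallest adjusted p was 0.597. An unadjusted p below 0.05 was found for 2353 genes (7.81%; 5.69% higher and 2.12% lower in treated hearts), and the groups did not overlap for 3723 genes (12.4%), of which 1260 (4.18% of all) were lower and 2463 (8.17%) higher in treated hearts. The median difference over all genes was 0.028 on the log2 scale.

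None of the 6 measured members passed the adjusted threshold, and 0 had an unadjusted p below 0.05 in limma. Of the 6, 3 had a higher and 3 a lower mean signal in treated hearts, beside 41.8% of all genes with a lower mean, and the median difference was -0.039 on the log2 scale. The widest difference was in the coactivator Ncoa1, at 0.858-fold. For Ncoa1 and Nr3c2 every treated array lay below every untreated array, that is for 2 of 6 members, beside the 4.18% of all genes that were lower in this way and the 12.4% separated in either direction.

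**Figure D1:**
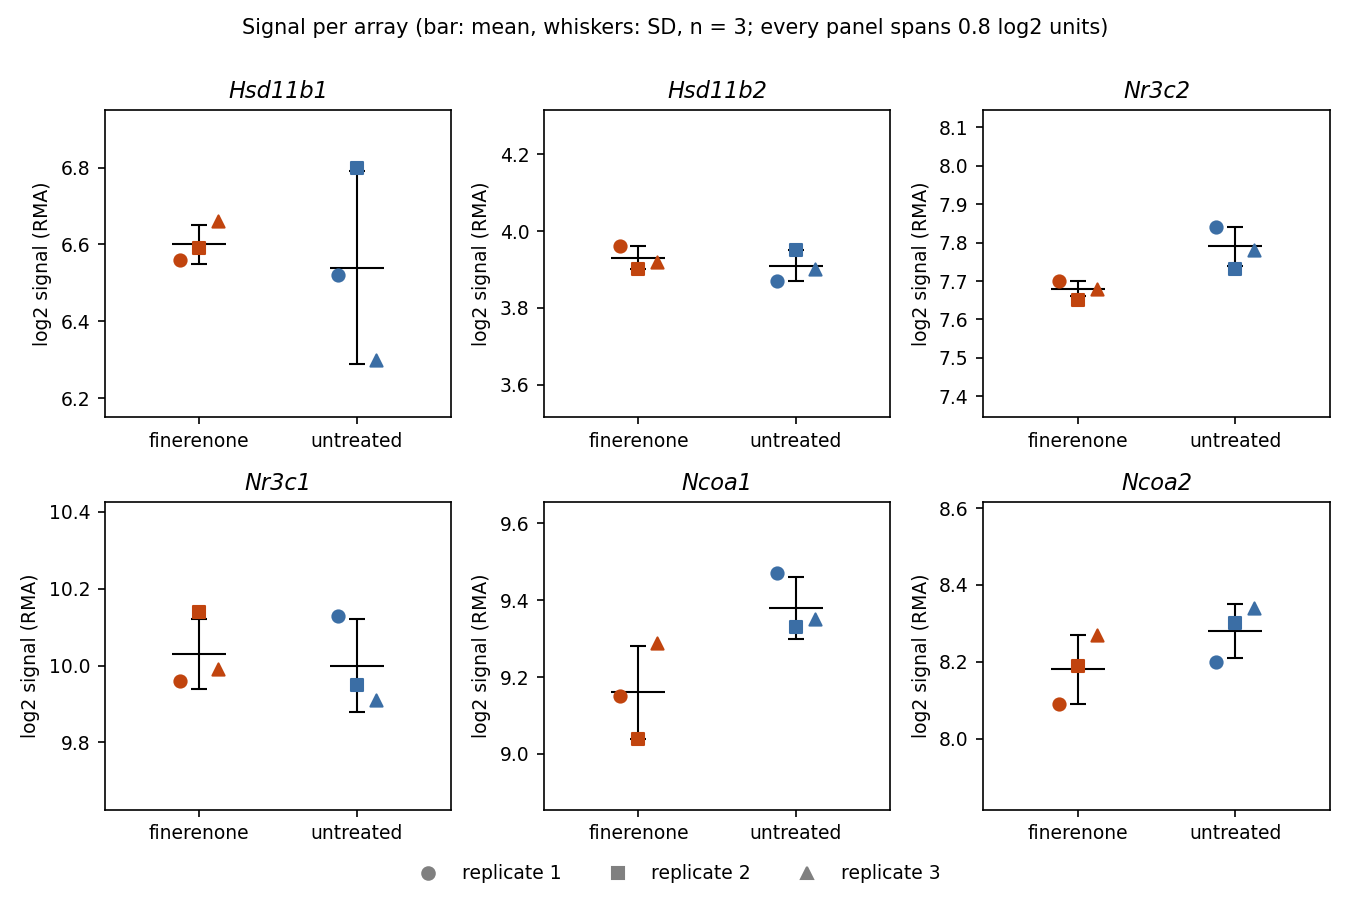
Log2 signal (RMA) of each array for the 6 measured genes, treated hearts left and untreated hearts right in each panel, with the mean (bar) and SD (whiskers, n = 3 each). All panels have the same height in log2 units. Treated points lie below untreated ones for Nr3c2 and Ncoa1, and the groups overlap for Hsd11b1, Hsd11b2, Nr3c1 and Ncoa2.

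Among sequences, the 250 bases upstream of an annotated start are shown for Nr3c2 and Ncoa1, since these are the members whose groups did not overlap. They come from RefSeq (GRCm38.p6), which gave an entry for 3 of the 6 measured members. The Nr3c2 stretch lies at chr8:76902080-76902329 on the plus strand and the Ncoa1 stretch at chr12:4477183-4477432 on the minus strand, both read 5′ to 3′. Those of Nr3c2 and Hsd11b1 lie inside the gene's annotated span and thus belong to internal starts, not to its outermost one. Capitals mark the GC box GGGCGG or its reverse complement CCGCCC.
Nr3c2: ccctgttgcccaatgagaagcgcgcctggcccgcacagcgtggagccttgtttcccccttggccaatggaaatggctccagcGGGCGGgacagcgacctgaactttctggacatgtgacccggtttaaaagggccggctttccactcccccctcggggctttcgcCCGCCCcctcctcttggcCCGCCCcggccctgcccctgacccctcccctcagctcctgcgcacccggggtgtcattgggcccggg
Ncoa1: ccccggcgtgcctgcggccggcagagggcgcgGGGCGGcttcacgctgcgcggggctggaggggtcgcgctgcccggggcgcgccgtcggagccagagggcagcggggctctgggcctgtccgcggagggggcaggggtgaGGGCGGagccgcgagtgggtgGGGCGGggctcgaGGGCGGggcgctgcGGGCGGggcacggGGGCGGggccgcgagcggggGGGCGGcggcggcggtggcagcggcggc

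The Nr3c2 and Ncoa1 stretches were rich in G and C, and that of Hsd11b1 was not. The Ncoa1 stretch held 85.6% G and C, 40 CpG pairs and 7 GC boxes, and the Nr3c2 stretch 68.4%, 17 and 3. The Hsd11b1 stretch (chr1:193242361-193242610, minus strand) held 54.4%, 6 and 0, while the median over 32851 upstream stretches of the same length was 52.4% with 6 CpG pairs. A GC box was present in 32.7% of all stretches. The steroid receptor half-site TGTTCT (reverse complement AGAACA) matched neither, nor the upstream stretch of Hsd11b1, and it matched 16.1% of all stretches. The complete palindrome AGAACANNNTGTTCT, which contains that half-site on both strands, matched none of the 3 and was found in 3 of the 32851. Only these windows and letters were searched, and nothing follows from them about binding elsewhere. Since Nr3c2 and Ncoa1 were shown because of their values, beside Hsd11b1 alone, a link of base content with the differences was not tested.

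The activating enzyme Hsd11b1 (chr1:193221640-193264045, GRCm38.p6) measured 6.56, 6.59 and 6.66 in treated hearts and 6.52, 6.80 and 6.30 in untreated hearts. The treated arrays lay within 0.10 of each other and inside the range of the untreated arrays, which spanned 0.49. Means were 6.60 ± 0.05 and 6.54 ± 0.25 (SD, n = 3 each), a log2 difference of 0.06 ± 0.13 (SE) with a 95% interval from -0.26 to 0.39 (adjusted p = 0.943 in limma). That interval spans 0.836-fold to 1.31-fold, the widest of the 6 members. The difference rested on single arrays, being 0.193 without untreated replicate 2 and -0.054 without untreated replicate 3.

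The inactivating enzyme Hsd11b2 (chr8:105518746-105523988) measured 3.96, 3.90 and 3.92 in treated hearts and 3.87, 3.95 and 3.90 in untreated hearts. All 6 values lay below the median negative control of their arrays, which ran from 5.04 to 5.33. The difference of 0.02 ± 0.07 (SE; 95% interval -0.15 to 0.19; adjusted p = 0.977 in limma) is thus one between signals at background, and a difference in Hsd11b2 transcript was not detectable at this signal. Within each array, Hsd11b1 minus Hsd11b2 was 2.68 ± 0.07 in treated hearts and 2.63 ± 0.22 in untreated ones (mean ± SD, n = 3 each). With Hsd11b2 at background this quantity restates the level of Hsd11b1, so the balance of the enzymes could not be tested here.

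The mineralocorticoid receptor Nr3c2 (chr8:76898083-77245012), the protein that finerenone blocks, measured 7.70, 7.65 and 7.68 in treated hearts and 7.84, 7.73 and 7.78 in untreated hearts. The highest treated array was 0.032 below the lowest untreated one. Means were 7.68 ± 0.02 and 7.79 ± 0.05 (SD, n = 3 each), or 0.928-fold, with a log2 difference of -0.11 ± 0.07 (SE) and a 95% interval from -0.28 to 0.07 (adjusted p = 0.767 in limma). Expressed as folds the interval runs from 0.821 to 1.05. Its signal was above the median negative control on all 6 arrays but above their 95th percentile on 0, as for Hsd11b1 and Ncoa2, while Nr3c1 and Ncoa1 were above that percentile on all 6. Its difference was -0.08 without untreated replicate 1, the array with the highest value.

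The glucocorticoid receptor Nr3c1 (chr18:39410545-39519421) measured 9.96, 10.14 and 9.99 in treated hearts and 10.13, 9.95 and 9.91 in untreated hearts. The groups overlapped, with the highest treated array (replicate 2) and the highest untreated array (replicate 1) almost level. The log2 difference was 0.03 ± 0.10 (SE), with a 95% interval from -0.20 to 0.27 and an adjusted p = 0.961 in limma. Leaving out untreated replicate 1 gave 0.10 and leaving out finerenone replicate 2 gave -0.019, so the data fix no direction.

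Nr3c2 minus Nr3c1 within each array asked whether the receptors shifted unequally. It was -2.26, -2.48 and -2.31 in treated hearts and -2.29, -2.22 and -2.13 in untreated hearts. The groups overlapped, because untreated replicate 1 lay below finerenone replicate 1. The difference of -0.14 had a two-sided exact permutation p = 0.2. With 20 assignments of arrays to groups, the smallest p that this test can give is 0.1. That floor lies above the level used here for unadjusted p, so the test cannot decide whether the receptors shifted unequally. With single arrays left out the difference ran from -0.188 to -0.076, its size being lowest without finerenone replicate 2. Values of different genes depend on their probes and do not show which receptor was more abundant.

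**Figure D2:**
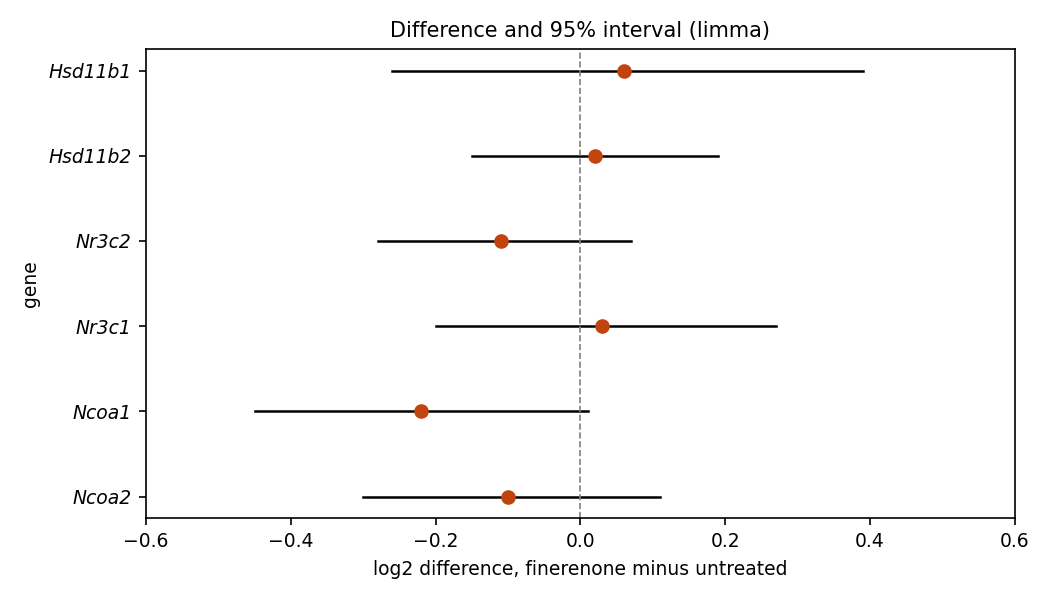
Log2 difference, finerenone minus untreated, of each measured gene (point) with its 95% interval from limma (line), enzymes at the top, receptors in the middle and coactivators at the bottom. All 6 intervals include 0, and that of Ncoa1, from -0.45 to 0.01, reaches it only at its edge.

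The coactivator Ncoa1 (chr12:4247362-4477206) measured 9.15, 9.04 and 9.29 in treated hearts and 9.47, 9.33 and 9.35 in untreated hearts. Finerenone replicate 3 was 0.042 below the lowest untreated array, so the groups were separate by less than the spread within either. Means were 9.16 ± 0.12 and 9.38 ± 0.08 (SD, n = 3 each), a log2 difference of -0.22 ± 0.09 (SE) with a 95% interval from -0.45 to 0.01 (limma, unadjusted p = 0.0547, adjusted p = 0.646). Over 15 other settings its adjusted p ran from 0.444 to 0.886, and the unadjusted p was below 0.05 in 4 of them. Without untreated replicate 1 the difference was -0.178 and without finerenone replicate 3 it was -0.285.

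Its paralogue Ncoa2 (chr1:13139105-13374227) measured 8.09, 8.19 and 8.27 in treated hearts and 8.20, 8.30 and 8.34 in untreated hearts. The groups overlapped by 1 array on each side, finerenone replicate 3 and untreated replicate 1. The log2 difference was -0.10 ± 0.09 (SE; 95% interval -0.30 to 0.11; adjusted p = 0.832 in limma). Leaving out finerenone replicate 1 gave -0.051, leaving out untreated replicate 1 gave -0.137, and the difference was negative in all 15 other settings.

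**Figure D3:**
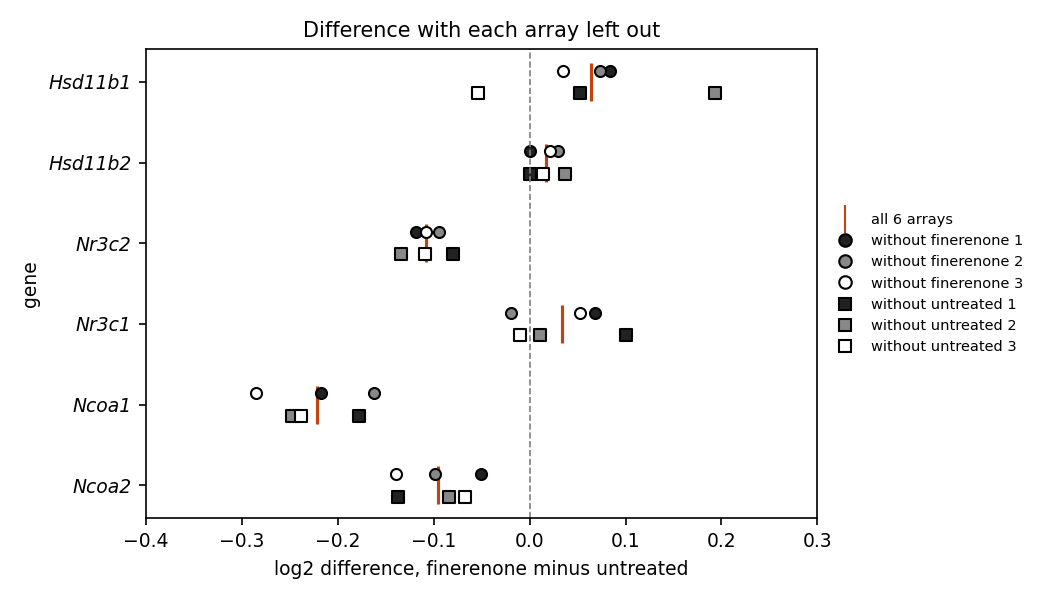
Log2 difference, finerenone minus untreated, of each gene with all 6 arrays (vertical tick) and with 1 array left out (circles for treated and squares for untreated arrays). Nr3c2, Ncoa1 and Ncoa2 stay below 0 throughout, while Nr3c1 and Hsd11b1 cross it and Hsd11b2 stays within 0.0003 to 0.037.

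The genes with the lower signal in treated hearts were also the longest of the 6. Nr3c2 spans 346.9 kb, Ncoa2 235.1 kb and Ncoa1 229.8 kb in the RefSeq annotation, against 108.9 kb for Nr3c1, 42.4 kb for Hsd11b1 and 5.2 kb for Hsd11b2. Span moved with the difference among the 11273 genes with a mean signal of at least 6 and a RefSeq span. There the median difference was 0.138 for 4458 genes under 10 kb, -0.007 for 2686 genes of 30 to 100 kb and -0.044 for 312 genes of 200 to 400 kb. Of the last class, 61.9% were lower in treated hearts and 9.62% were lower with no overlap. A trend with span and signal level was then subtracted, a step added once the values were known. That trend was fitted over all named genes with a RefSeq span, without the filter on signal. After its removal the difference was -0.07 for Nr3c2, -0.18 for Ncoa1 and -0.06 for Ncoa2. The part of span in these differences was not tested further.

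**Figure D4:**
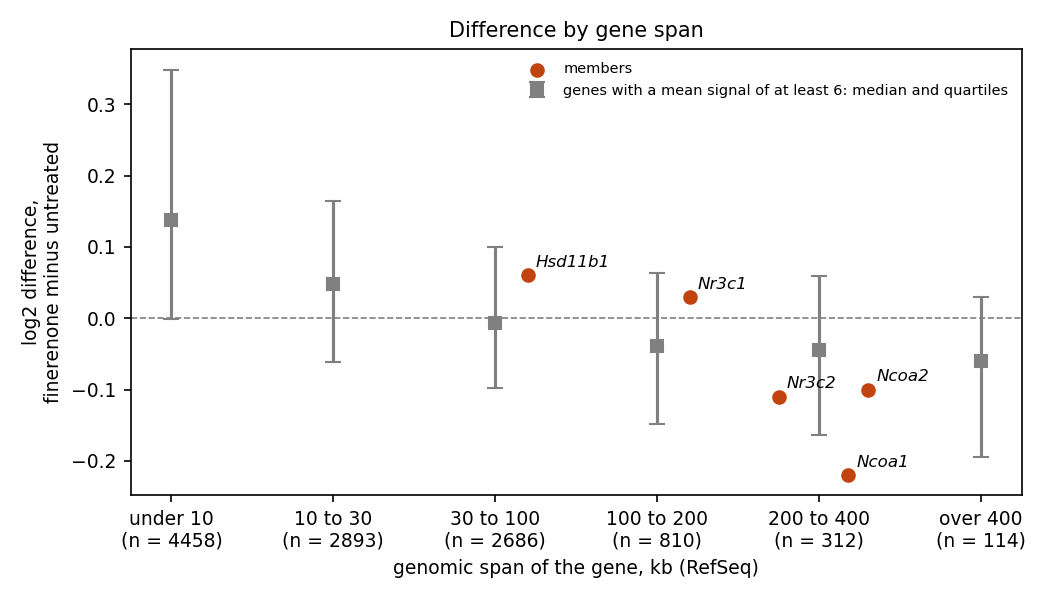
Log2 difference, finerenone minus untreated, by genomic span for genes with a mean signal of at least 6 (squares: median of each class; whiskers: quartiles), with the 5 members above that level as points in their class. Medians run from 0.138 in the shortest class to -0.06 in the longest, and Ncoa1 lies below the lower quartile of its class, -0.164.

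Marker lists of cell types were summarised, but they do not measure cell composition. Over all genes, 41.8% had a lower mean in treated hearts. In whole tissue, fewer cells of a type and less RNA per cell cannot be told apart. All 10 measured endothelial markers were lower in treated hearts, with a list mean of 11.30 to 11.47 against 11.48 to 12.06. No endothelial marker had a mean below the median negative control. Of 12 macrophage markers 11 were higher (8.64 to 8.99 in treated, 8.33 to 8.74 in untreated hearts), with Cx3cr1 alone below the median negative control. Of 9 fibroblast markers 6 were higher (10.98 to 11.43 in treated, 10.87 to 11.37 in untreated hearts). Smooth muscle and pericyte markers were lower in 8 of 10 cases (10.28 to 10.51 in treated, 10.40 to 10.74 in untreated hearts), with Cnn1 below the median negative control. As with Nr3c2 and Ncoa1, the endothelial list means did not overlap between groups. The untreated arrays had the same order in all 3, with replicate 1 highest, then replicate 3, then replicate 2. Their values were 12.06, 11.69 and 11.48 for the endothelial mean, 7.84, 7.78 and 7.73 for Nr3c2, and 9.47, 9.35 and 9.33 for Ncoa1. Among treated arrays the orders differed: the endothelial mean was highest in finerenone replicate 2 (11.47), where Nr3c2 (7.65) and Ncoa1 (9.04) were lowest. The treated values of Nr3c2, however, spanned only 0.05. List means were also separate for T and B cells (8 of 8 measured markers below the median negative control) and for Schwann cells and nerve (3 of 4 below it). The part of these lists in the members' values was not tested.

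Lists of neighbouring genes placed the members in their pathway. Their counts of lower genes stand beside the 41.8% of all genes with a lower mean. Before they bind hormone, both receptors sit in a complex with Hsp90 and its cochaperones. Of the 16 listed genes of that complex 12 were measured, of which 9 were higher and 2 lower in treated hearts. The 9 include Dnajb1 and Ppid, looked up after the values were seen, at only 0.0 and 0.01. Hspa8 was at the top of the scale (19.93) on all arrays, so that no difference could show. Of the 12 measured genes, 0 passed the threshold set over all genes. The median difference of the 12, Hspa8 included, was 0.07 beside 0.028 for all genes, and it was 0.1 without Hspa8. For the 12, however, quantile normalization gave 0.022, cyclic loess 0.023 and the fit without finerenone replicate 3 gave 0.021. St13 (Hip), a cochaperone of Hsp70, measured 11.80, 11.73 and 11.79 in treated hearts and 11.46, 11.54 and 11.54 in untreated hearts. Its groups did not overlap, as for the 8.17% of all genes that were higher in this way. The difference of St13 was 0.26 ± 0.07 (SE; limma, unadjusted p = 0.0106, adjusted p = 0.597). Bag1, an Hsp70 nucleotide exchange factor, differed by 0.36 ± 0.17 and Ptges3 (p23), which stabilises the hormone-binding state, by 0.11 ± 0.07.

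Of 22 other listed coregulators 20 were measured, of which 8 were higher and 12 lower in treated hearts, 0 passed over all genes, and the median was -0.01 (-0.052 without untreated replicate 2). Crebbp, the acetyltransferase CBP that p160 coactivators recruit, measured 11.38, 11.32 and 11.65 in treated hearts and 12.03, 11.59 and 11.71 in untreated hearts, and finerenone replicate 3 overlapped the untreated arrays. Its difference was -0.32 ± 0.15 (SE; adjusted p = 0.658 in limma). Tbl1x, a subunit of the corepressor complex around Ncor1, differed by -0.21 ± 0.10 and Med1, the Mediator subunit that contacts nuclear receptors, by -0.16 ± 0.08. Among the 8 higher genes were Ppargc1a (0.34 ± 0.25) and Hdac3 (0.24 ± 0.13), looked up after the values were seen. Ncoa3, the remaining p160 coactivator, was looked up after the values were seen and measured 9.81, 9.70 and 9.86 in treated and 9.73, 9.67 and 9.98 in untreated hearts, so its groups overlapped.

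Steroid synthesis genes gave little signal in these ventricles. Of 14 listed genes of synthesis, activation and transport 13 were measured, and 9 of these had a mean below the median negative control. Among them were Cyp11b1 and Cyp11b2, the last enzymes of corticosterone and aldosterone synthesis. The list had 8 higher and 5 lower members, 0 past the threshold and a median of 0.01. Cyp11b1 differed by 0.10 ± 0.07 (SE) between signals at background. The steroid efflux pumps were above the median negative control on all 6 arrays, with Abcb1a at -0.23 ± 0.25 and Abcb1b at 0.14 ± 0.23. Abcb1b exceeded the 95th percentile of those controls in finerenone replicate 2 only. H6pd, which supplies the NADPH that Hsd11b1 uses, was looked up after the values were seen and measured 6.89, 6.77 and 6.65 in treated and 6.82, 6.79 and 6.68 in untreated hearts.

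Of 7 other receptors of the NR3 class 5 were measured, 2 higher and 3 lower in treated hearts, with 0 past the threshold and a median of -0.11. That median rested on single arrays, being 0.003 without untreated replicate 2, -0.003 without untreated replicate 3, -0.055 without finerenone replicate 2 and -0.05 without finerenone replicate 3. Of the 5, 4 had means below the median negative control. Esrrg, an orphan receptor of oxidative muscle, was above it on all 6 arrays but, like Nr3c2, below the 95th percentile of the negative controls. Esrrg had means of 8.05 ± 0.10 in treated hearts and 8.16 ± 0.18 in untreated ones (SD, n = 3 each), with a log2 difference of -0.11 ± 0.12 (SE; adjusted p = 0.863 in limma). Esr2 differed by -0.11 ± 0.08 and Esrrb by -0.11 ± 0.14, both near or below background.

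The genes whose signals ran most nearly parallel to each member over the 6 arrays were sought by Pearson correlation, as a description only, among the 8300 genes with a mean of at least 6 left after predicted genes, receptor families of smell, small RNAs, pseudogenes and immune receptor segments were skipped by symbol. For Nr3c2 they were Asah2 (0.992), a neutral ceramidase, and Srgap2 (0.990), a regulator of Rac, and for Ncoa1 they were Nfrkb (0.993) and Kdm2a (0.987), chromatin proteins. Nr3c1 ran with Cd2ap and Sh3bgrl3, Hsd11b1 with Rnf14 and Wbp11, and Ncoa2 with Atg2a and Camk2b, at 0.978 to 0.991. Hsd11b2 ran with Commd4 and Drg2 at 0.996 to 0.997 although it lay at background. For each member these are the 2 highest of 8300 values over only 6 arrays, which share their group difference and their normalization.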

How the data were processed

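The authors deposited log2 signals per probe set. The submitters' processing notes name RMA, the Transcriptome Analysis Console and the Affymetrix Expression Console; their versions were not given in the sources used here. RNA integrity numbers were above 7.3, per the labels' protocols. The table held 6732 controls and 65956 transcript clusters, of which 30604 had 1 symbol, 2146 had several and 33206 had none. Repeats of 1 symbol counted as 1, and symbols were updated by Entrez identifier to RefSeq (GRCm38.p6), giving 30142 genes. Where a gene had more than 1 cluster (355 genes), the cluster with the highest mean stood for it. Differences (finerenone minus untreated) were fitted over all genes in R 4.3.3 by limma 3.58.1 (functions lmFit, eBayes; two-sided, Benjamini-Hochberg, threshold 0.05), after a check on simulated data. Within-array differences used exact permutation (scipy 1.17.1). With 3 arrays per group, their number limits the precision. Groups came from the sample titles, which call the mice biological replicates.

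The members and lists were chosen with earlier results of these data known. All members were named, and of each list the 3 genes with the smallest unadjusted p, and for each member the 2 most parallel genes; other genes are marked as chosen later. Genes of the T and B cell (4.18 to 4.20 in treated, 4.24 to 4.31 in untreated hearts), adipocyte (6.29 to 6.44 in treated, 6.34 to 6.53 in untreated), skeletal muscle (7.89 to 8.34 in treated, 7.92 to 8.12 in untreated) and Schwann cell (5.45 to 5.47 in treated, 5.20 to 5.37 in untreated) lists were summarised as list means. Alternatives were quantile normalization, median centring, cyclic loess, a filter at a mean of 6, a trended robust prior, array weights, a replicate block, the mean of clusters, all clusters, each array left out and, added later, removal of a span and level trend.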

Additional observations from a re-analysis of the deposited data

How the results depend on the processing

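The count of genes past the adjusted threshold was 0 under all 15 alternatives, and no measured member passed under any. The count at an unadjusted p below 0.05 (2353 of 30142) was 1305 of the 11356 genes with a mean of at least 6 and 4138 of all 65956 transcript clusters. It was 1691 to 2789 when single arrays were dropped. Nr3c2, Ncoa1 and Ncoa2 kept their sign throughout, at -0.134 to -0.072, -0.285 to -0.162 and -0.139 to -0.051. Nr3c1 turned to -0.029 after quantile normalization and -0.006 after cyclic loess, and lay between -0.019 and 0.10 when single arrays were dropped. Hsd11b2 turned to -0.0044 after quantile normalization and -0.0008 after cyclic loess (0.0003 to 0.037 with single arrays left out). Hsd11b1 lay between -0.054 and 0.193 when single arrays were dropped, and its within-array difference from Hsd11b2 from -0.068 to 0.156. The cause of these changes of sign was not tested. List medians ran from 0.021 to 0.128 (chaperones), -0.052 to 0.012 (coregulators), -0.049 to 0.062 (synthesis and transport) and -0.144 to 0.003 (NR3 receptors) with single arrays left out.

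Deviations of same-numbered replicates from their group means correlated at -0.108, 0.111 and 0.0999, and those of differently numbered ones at -0.184 to 0.0879. With 3 arrays per group these values cannot decide whether the numbers pair the mice, and the main fit did not pair them. With the replicate number as a block, differences were unchanged by construction and Ncoa1 (-0.222) had an adjusted p = 0.673 in limma. The filter at a mean of 6 removed Hsd11b2, which then has no value. Signals near the negative controls, as for Hsd11b2, limit what can be seen.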
